A study of Mus musculus with 6 samples.

Results

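The epithelial sodium channel and the genes that activate, retrieve and induce it were followed in whole-lung RNA of mice that carry a transgene for one of its subunits. The 10 genes were chosen by symbol: the pore-forming subunits Scnn1a, Scnn1b and Scnn1g, the proteases Prss8, St14 and Furin, the ubiquitin ligase Nedd4l, the kinase Sgk1, the mineralocorticoid receptor gene Nr3c2 and the steroid enzyme gene Hsd11b2. All 10 were measured, each by 1 probe set, among 19935 genes in all. There were 3 arrays of wild-type lung and 3 of Scnn1b-Tg (Scnn1b-Transgenic) lung, all from mice of the C57BL/6 background, and the study searched for candidate genes of emphysema. The labels give no age, sex, batch or treatment and do not state that samples are different animals, so each p-value reflects only the spread among these samples, which may be technical. As background, Scnn1b-Tg mice are known for a transgene driven by the promoter of the club cell secretory protein gene, which is active in airway secretory cells and not in the whole lung; the labels do not name the promoter.

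The channel is a heteromer of α, β and γ subunits in the apical membrane of epithelia, where it takes up sodium and water follows, and in the lung it sets the depth of airway surface liquid and clears alveolar fluid. It is switched on when serine proteases cut the extracellular loops of the α and γ subunits, and it is withdrawn when NEDD4L tags its cytoplasmic tails with ubiquitin. Aldosterone and glucocorticoids raise its activity through the mineralocorticoid and glucocorticoid receptors and through SGK1, a kinase that holds NEDD4L off.

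The start regions of 3 of the mouse's own genes are shown as background on their sequence, apart from the comparison below. The Scnn1b window lies before the mouse's own gene, whereas the transgene is known for a different promoter, named above. Scnn1b rose in the transgenic lungs, Scnn1g is the next protein-coding gene to it in the RefSeq gene order of the mouse and did not pass the test, and Sgk1 is a member known to respond to corticosteroids. The RefSeq promoter table (GRCm38.p6) held windows for 5 of the 10 members, namely Scnn1b, Scnn1g, Furin, Sgk1 and Nr3c2, 11 windows in all, and had none for Scnn1a, Prss8, St14, Nedd4l and Hsd11b2. Each sequence is the 250 bases before a transcription start on the plus strand, at chr7:121864788-121865037 for Scnn1b, chr7:121734229-121734478 for Scnn1g and chr10:21993640-21993889 for the fifth of 6 Sgk1 windows. Capitals mark matches on either strand to the corticosteroid receptor half-site AGAACA and to the GC box GGGCGG.
Scnn1b: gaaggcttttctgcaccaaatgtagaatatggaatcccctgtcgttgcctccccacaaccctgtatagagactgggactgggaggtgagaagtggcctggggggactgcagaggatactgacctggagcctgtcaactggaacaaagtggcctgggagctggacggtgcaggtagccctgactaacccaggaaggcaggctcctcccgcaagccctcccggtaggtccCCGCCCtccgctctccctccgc
Scnn1g: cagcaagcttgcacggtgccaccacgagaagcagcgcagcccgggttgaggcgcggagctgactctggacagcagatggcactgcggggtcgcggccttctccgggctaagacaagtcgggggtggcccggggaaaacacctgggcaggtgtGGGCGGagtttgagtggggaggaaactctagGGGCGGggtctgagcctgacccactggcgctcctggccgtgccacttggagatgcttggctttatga
Sgk1: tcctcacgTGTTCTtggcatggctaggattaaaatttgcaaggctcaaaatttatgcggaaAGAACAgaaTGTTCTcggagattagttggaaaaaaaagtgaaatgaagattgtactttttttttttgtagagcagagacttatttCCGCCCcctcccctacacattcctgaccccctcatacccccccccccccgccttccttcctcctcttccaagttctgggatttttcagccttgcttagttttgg
The Scnn1b window held 1 GC box and the Scnn1g window 2, a motif found in 32.7% of all 32851 windows of this length. Neither held the half-site, which 16.1% of all windows hold, nor TATAAA on either strand (12.4%). The Sgk1 window held 3 half-sites and 1 GC box. A pair of its half-sites forms an inverted repeat, AGAACA and TGTTCT with 3 bases between them, the palindromic corticosteroid response element in its full form, which was found in 3 of the 32851 windows (0.00913%). The Sgk1 window shown is the 1 of the 11 member windows that held this pair, so it does not stand for the others. Sgk1 windows 2, 3 and 6 held no half-site. Of 16 windows available for the corticosteroid list described below, 0 held the pair. These matches describe the letters and not binding.

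The arrays were alike in scale, with medians between 47.6 and 48.5 and lowest values between 18.3 and 18.6. On the first principal component wild type replicate 2 stood apart, and on the second Scnn1b-Tg replicate 3 did. The first also had all wild-type arrays (-3.28 to 16.3) above all transgenic ones (-8.91 to -4.48). The tissue label was borne out by lung markers: the intensity of the surfactant gene Sftpc ran from 7241 to 8534 over the 6 arrays, that of the club cell gene Scgb1a1 from 3379 to 4579 and that of the epithelial adhesion gene Epcam from 99.5 to 105.8. Markers of kidney tubule, another tissue rich in this channel, were dim, with Aqp2 at 42.8 to 48.6 and Umod at 24.1 to 27.5 (both named after their values were seen). Markers of some cell types lay higher or lower in Scnn1b-Tg lung. All 9 measured macrophage markers had values above 0, with a median log2 fold change of 0.37 and a summed intensity of 971 to 1001 in wild type and 1211 to 1296 in Scnn1b-Tg. Of 10 club cell markers 9 were below 0 (median -0.23), with a summed intensity of 8265 to 9936 in wild type and 7076 to 7532 in Scnn1b-Tg. Of 6 markers of the cardiac-type muscle of pulmonary veins 5 were below 0, with a median of -0.36. The 11 pan-epithelial markers had a median of 0.05 and the 10 alveolar type 2 markers one of 0.03. None of these markers passed the test over all genes, and in bulk lung fewer cells of a type and less RNA per cell cannot be told apart.

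Across the 10 genes 1 rose in Scnn1b-Tg lung, Scnn1b, and none fell. A gene was counted as changed at a Benjamini-Hochberg adjusted p under 0.05 in limma over all 19935 genes. By that rule 0.00502% of all genes were called, which is Scnn1b and no other gene, and at an unadjusted p under 0.05 there were 1198 genes, or 6.01% (3.96% higher and 2.05% lower). Of the other 9 members none reached an unadjusted p under 0.05, and the smallest was 0.0659, of Furin. Wild-type and transgenic arrays overlapped for all of these 9, whereas over all genes they did not overlap for 10.7% (6.26% wholly higher and 4.41% wholly lower in Scnn1b-Tg). The median log2 fold change of the 9 was -0.03, beside 0.01 over all genes.

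Scnn1b encodes the β subunit, which is needed for the channel to reach the cell surface in full number. Its intensity was 172, 108 and 139 in wild type replicates 1, 2 and 3, and 1405, 1527 and 1333 in the Scnn1b-Tg replicates. The lowest transgenic array was 7.75 times the highest wild-type array, while within wild type the highest was 1.59 times the lowest. The means were 139.7 ± 31.9 for wild type and 1422 ± 98.3 for Scnn1b-Tg (SD, n = 3 each), which is a difference of 3.37 ± 0.16 (SE) in log2 units (adjusted p = 0.00241, limma). Its 95% interval ran from 7.99-fold to 13.4-fold. On the log2 scale the SD between arrays was 0.33 in wild type and 0.10 in Scnn1b-Tg, so the transgenic arrays lay closer together than the wild-type ones, a difference in spread that was not tested. Among markers of club cells, in which the transgene is known to be active, Scgb1a1 gave -0.31 ± 0.07 (SE). Of the 10 markers 9 had values below 0 and 4 had all transgenic arrays below all wild-type arrays. None passed the test, and 5 were lower at an unadjusted p under 0.05. Over all genes 46.8% had values below 0, 4.41% had all transgenic arrays below all wild-type arrays, and 2.05% were lower at that unadjusted p. The probe set does not tell transcripts of the transgene from those of the mouse's own gene. With wild type replicate 3 left out Scnn1b gave 3.38 on the log2 fold scale and missed the threshold (adjusted p = 0.0559, limma), the only one of 17 other settings in which the call was lost.

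**Figure D1:**
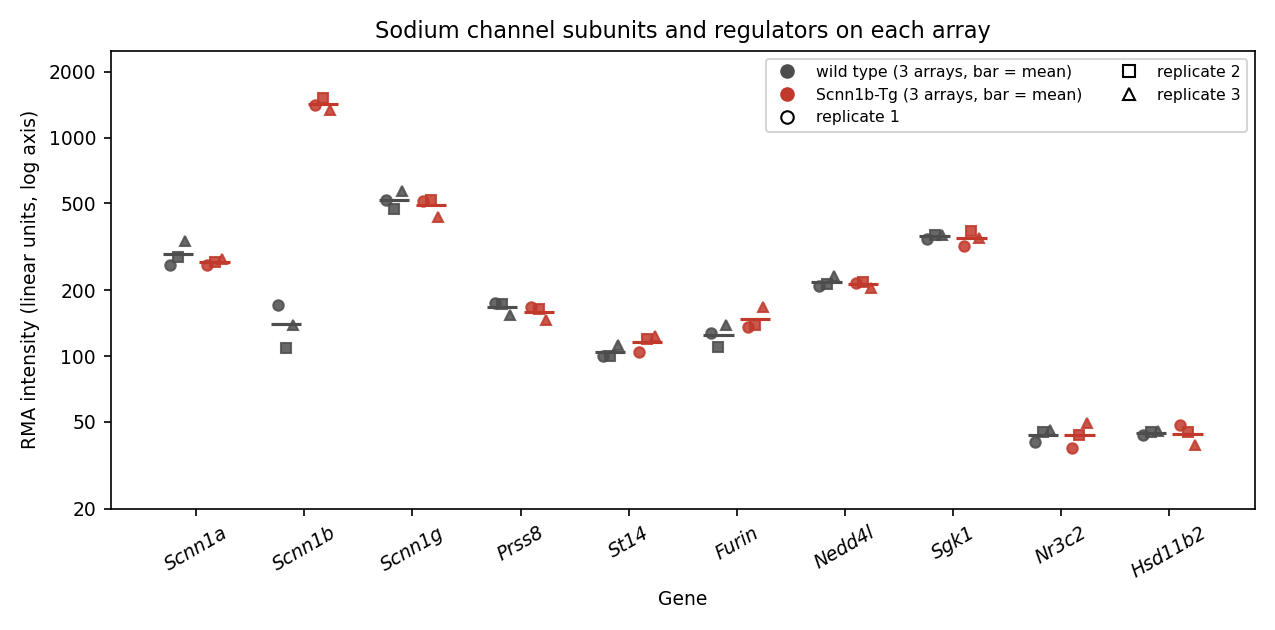
RMA intensity (log axis) of the 10 genes on each of the 6 arrays, with grey symbols for wild type, red for Scnn1b-Tg, symbol shape for the replicate number and a bar at each mean. Scnn1b went from a mean of 139.7 to 1422 with no overlap, and the arrays of both genotypes overlapped for each of the other 9 genes.

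Neither partner subunit passed the test. Scnn1a encodes the α subunit, without which the channel carries almost no current. Its intensity was 261, 285 and 338 in wild type and 260.0, 268 and 279 in Scnn1b-Tg, with wild type replicates 2 and 3 above all transgenic arrays and wild type replicate 1 among them. This gave a log2 fold change of -0.12 ± 0.09 (SE), with a 95% interval from 0.788-fold to 1.07-fold. Leaving out wild type replicate 3 brought it to -0.02, and leaving out replicate 1 of that genotype to -0.21. Scnn1g encodes the γ subunit, which is cut by furin and then by prostasin on its way to full activity. Its intensity was 517, 470 and 569 in wild type and 515, 520.0 and 432 in Scnn1b-Tg, with both the highest and the second lowest value in wild type. For Scnn1g the log2 fold change was -0.09 ± 0.10 (SE) and the interval 0.803-fold to 1.11-fold. Without Scnn1b-Tg replicate 3, the lowest array for Scnn1g, the value was 0.0012. Scnn1b thus gained 3.49 log2 units on Scnn1a and 3.46 on Scnn1g. In an exact two-sided permutation test of this per-array difference each p was 0.1, the smallest that 3 against 3 arrays can give. All 3 transgenic arrays lay above the wild-type arrays. The transgenic mice carry added Scnn1b by design, and the probe set does not tell it from the mouse's own. The test therefore says nothing of how the mouse's own subunit genes are regulated relative to each other. Neither partner's interval reaches the 7.99-fold at the lower end of that of Scnn1b.

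Genes on either side of Scnn1b were read as well, chosen for their position. Cog7, the next protein-coding gene after Scnn1b, gave -0.03 ± 0.08 (SE), and Gga2 after it gave 0.06 ± 0.07. Usp31, before Scnn1g, gave 0.10 ± 0.15. The arrays of the genotypes overlapped for each of these 3.

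Among the activating proteases, values above 0 were found for St14 and Furin and not for Prss8. Prss8 encodes prostasin, a membrane-anchored channel-activating protease. Its intensity was 175, 173 and 154 in wild type and 168, 165 and 146 in Scnn1b-Tg, with replicate 3 the lowest array in each genotype. Prss8 gave a log2 fold change of -0.07 ± 0.08 (SE) with a 95% interval of 0.842-fold to 1.08-fold. With Scnn1b-Tg replicate 3 left out it was -0.0043, and with wild type replicate 3 left out -0.13. St14 encodes matriptase, which activates prostasin and other proteases at the cell surface. Its intensity was 99.7, 100.045 and 112 in wild type and 105, 119.5 and 123 in Scnn1b-Tg. Both higher transgenic arrays lay above all of wild type, but Scnn1b-Tg replicate 1 lay below wild type replicate 3. St14 gave a log2 fold change of 0.15 ± 0.08 (SE) and an interval of 0.976-fold to 1.27-fold, with an adjusted p of 0.877 in limma.

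Furin, the Golgi convertase that makes the first cuts in the α and γ subunits, had the largest value after Scnn1b. Its intensity was 127, 110.1 and 138 in wild type and 136, 139 and 168 in Scnn1b-Tg. Wild type replicate 2 was low and Scnn1b-Tg replicate 3 high, and the other 4 arrays lay between 127 and 139. This is a log2 fold change of 0.24 ± 0.11 (SE) and an interval from 0.986-fold to 1.41-fold (adjusted p = 0.842, limma). Its size exceeded that of 97.5% of all genes, and its SD within the genotypes that of 92.4%. Over single arrays left out the Furin value ran from 0.14 (Scnn1b-Tg replicate 3 dropped) to 0.31 (wild type replicate 3 dropped). With Scnn1b-Tg replicate 3 and wild type replicate 2 both dropped, a setting chosen after seeing the data, it was 0.05. It was above 0 in all 17 other settings tried. Of the 9 macrophage markers 0 passed the test and 7 were higher at an unadjusted p under 0.05, beside 3.96% of all genes. Their mean deviation ran from -0.21 to -0.18 over wild-type arrays and from 0.15 to 0.23 over transgenic ones. The part of these markers in the Furin value was not tested.

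**Figure D2:**
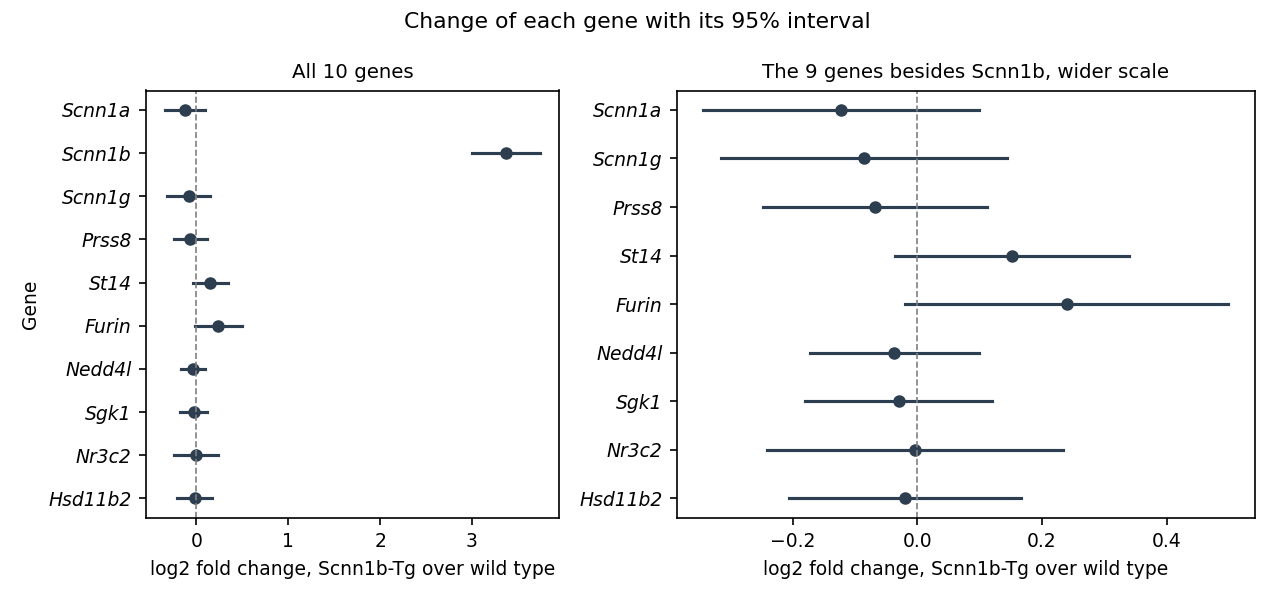
Log2 fold change of Scnn1b-Tg over wild type with its 95% interval from limma, for all 10 genes on the left and for the 9 besides Scnn1b on a wider scale on the right. Scnn1b lies at 3.37, and the intervals of the other 9 all include 0, with Furin (0.24) and St14 (0.15) farthest to the right.

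Nedd4l and Sgk1, the opposed pair that sets how long the channel stays at the surface, gave the narrowest intervals. Nedd4l encodes the ubiquitin ligase that binds the tails of all 3 subunits. Its intensity was 210.4, 213 and 234 in wild type and 217, 219 and 204 in Scnn1b-Tg, so that the genotypes were interleaved. Nedd4l gave a log2 fold change of -0.04 ± 0.06 (SE), and a 95% interval from 0.887-fold to 1.07-fold. For Sgk1 the intensity was 345, 358 and 357 in wild type and 320.5, 374 and 346 in Scnn1b-Tg, with both the lowest and the highest value in the transgenic group. The change of Sgk1 was -0.03 ± 0.06 on the log2 scale (SE), with an interval from 0.883-fold to 1.09-fold.

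The steroid arm was dim on these arrays and did not separate the genotypes. Nr3c2, the gene of the mineralocorticoid receptor, had an intensity of 40.5, 44.9 and 45.6 in wild type and 38.1, 43.5 and 49.6 in Scnn1b-Tg. The transgenic arrays enclosed the wild-type range on both sides, and the change of Nr3c2 was -0.0039 ± 0.10 on the log2 scale (SE), with an interval from 0.846-fold to 1.18-fold. Hsd11b2 encodes the enzyme that inactivates glucocorticoid and so leaves this receptor to aldosterone. Its intensity was 43.3, 44.9 and 45.5 in wild type and 48.4, 44.8 and 39.2 in Scnn1b-Tg, again wider in the transgenic group. The log2 fold change was -0.02 ± 0.08 (SE) and the interval 0.867-fold to 1.12-fold. The mean of each lies under the median intensity of the arrays, and any constant added to the values before deposit, which is not known, would make the fold change of such dim genes smaller.

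Read together, the intervals of the 9 members besides Scnn1b span from 0.788-fold (Scnn1a) to 1.41-fold (Furin), each interval being for its own gene and not adjusted for their number. In whole-lung intensity, a 2-fold change of any of them lies outside its interval. The intervals do not cover a change confined to some cells of the lung. Nor do they cover any added constant or background signal, which would matter most for the dim Nr3c2 and Hsd11b2. The means of these 2 genes, 43.7 and 44.3, lie within the 42.8 to 48.6 of the kidney marker Aqp2, so a 2-fold change of their transcripts could be hidden. Of the 9, 7 had a value below 0, or 77.8%, beside 46.8% of all genes (53.2% had one above 0), and 4 of these 7 were within 0.04 of 0.

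**Figure D3:**
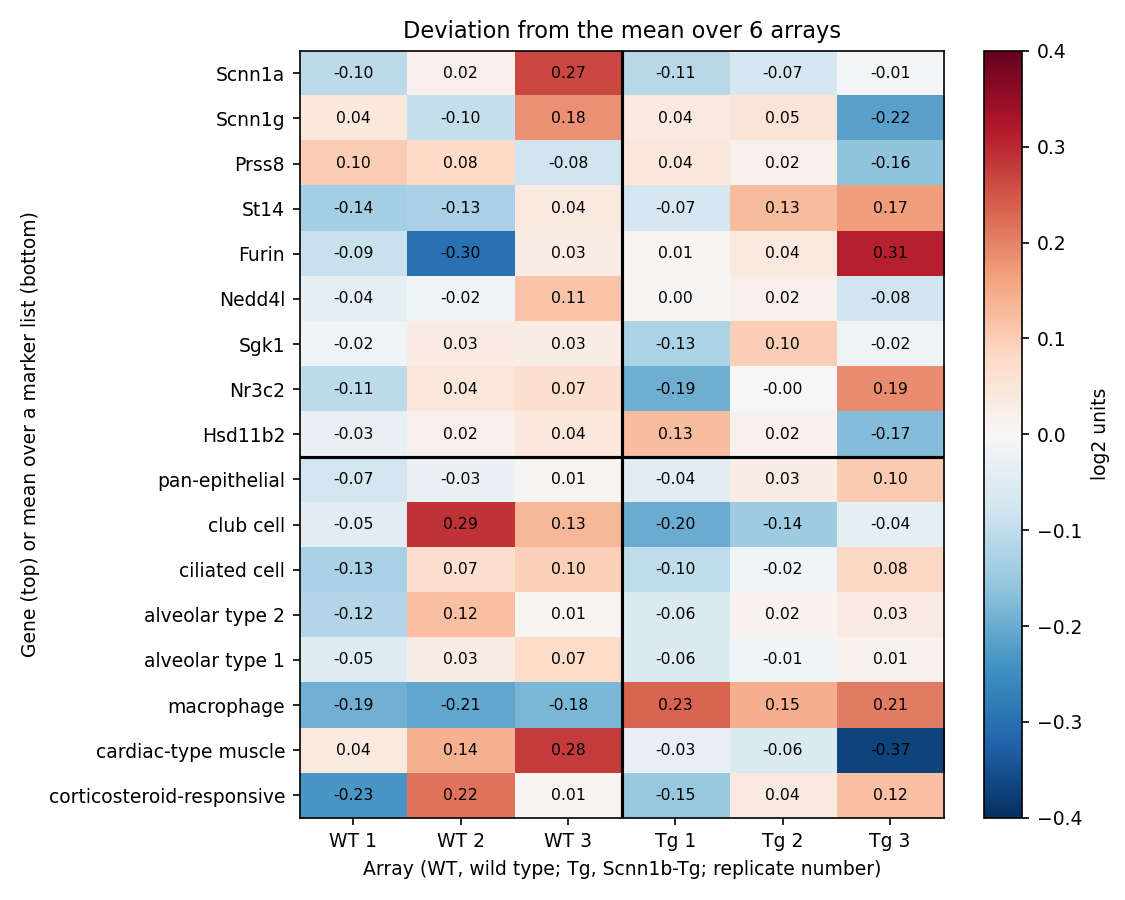
Deviation of the log2 intensity from its mean over the 6 arrays, for the 9 genes besides Scnn1b (top) and as the mean over each marker or pathway list (bottom), with wild-type arrays on the left and Scnn1b-Tg arrays on the right. The rows of macrophage markers (-0.21 to -0.18 against 0.15 to 0.23) and cardiac-type muscle markers (0.04 to 0.28 against -0.37 to -0.03) split by genotype and no row of the 9 genes does, and Furin is lowest on wild type replicate 2 (-0.30) and highest on Scnn1b-Tg replicate 3 (0.31).

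The members varied between arrays in different ways. Scnn1a was highest on wild type replicate 3, where it deviated by 0.27 log2 units from its mean, as were Scnn1g (0.18) and Nedd4l (0.11). On Scnn1b-Tg replicate 3 Scnn1g (-0.22), Hsd11b2 (-0.17), Prss8 (-0.16) and Nedd4l (-0.08) were each at their lowest, and Furin (0.31), Nr3c2 (0.19) and St14 (0.17) at their highest. The pan-epithelial markers averaged 0.10 on that array, their highest, and the cardiac-type muscle markers -0.37, their lowest. The 4 markers of the brown fat list averaged 0.27 there and -0.09 to -0.0023 on the other arrays. All 4 are named after their values were seen. Adipoq was at 44.3 there against at most 23.8 elsewhere, Plin1 at 48.7 against at most 41.6, and the dim Ucp1 at 25.3 against at most 24.2. Cidea, at 27.2, lay within its range of 26.9 to 29.5 on the other arrays. The part of these in the member values was not tested. Scnn1a had an SD of 0.19 in wild type and of 0.05 in Scnn1b-Tg, while Sgk1 and Hsd11b2 varied more among the transgenic arrays (0.11 and 0.15) than among the wild-type ones (0.03 and 0.04).

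Genes with the most similar profile were sought for each subunit by the root mean square difference of centred log2 values over the 6 arrays, among genes whose SD was at least 0.75 of the subunit's. For Scnn1b only 2 genes varied enough to be compared. Alox15, the gene of a lipoxygenase found in eosinophils and some macrophages, differed from it by 0.55 log2 units, and Car3, a carbonic anhydrase of fat and muscle that was high on Scnn1b-Tg replicate 3 alone, by 1.90. The nearest to Scnn1a were 4933401B06Rik (0.020), Prkd1 (0.027) and Scube2 (0.028), out of 6411 genes. The nearest to Scnn1g were Tns1 (0.017), Anxa5 (0.029) and Kcnk4 (0.031), out of 6716. With so many candidates and 6 arrays close profiles are easily found, and these are given as description only.

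Beyond the 10 genes, 84 of 87 further genes of the pathway were measured, in 6 lists. None of the 84 passed the test in either direction. At an unadjusted p under 0.05 there were 7, or 8.33%, all of them higher, beside 6.01% of all genes. Arrays did not overlap for 10 of the 84, or 11.9%, beside 10.7% of all genes. Their median log2 fold change was 0.01, equal to that of all genes at 2 decimals, and their values ran from -0.24 to 0.47.

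Of 17 proteases able to cut the channel or its activators, 10 were above 0, beside 53.2% of all genes, with a median of 0.02. At an unadjusted p under 0.05 there were 3, beside 6.01% of all genes. These 3 had higher values on all transgenic than on all wild-type arrays. Ctss, a cathepsin of antigen-presenting cells and macrophages, had an intensity of 557, 549 and 542 in wild type and 851, 732 and 701 in Scnn1b-Tg. It gave 0.47 ± 0.08 (SE) on the log2 fold scale (adjusted p = 0.187, limma). The lysosomal cathepsin gene Ctsb gave 0.22 ± 0.05 and Plau, the urokinase gene, 0.18 ± 0.05. All 9 macrophage markers had values above 0 in the same comparison. For 7 of them the transgenic arrays also lay wholly above wild type, beside 6.26% of all genes. Their part in the values of these 3 proteases was not tested. Epithelial surface proteases, named after their values were seen, gave -0.02 ± 0.08 for Tmprss2 and 0.09 ± 0.07 for Tmprss4. The neutrophil protease genes Elane (24.9 to 29.9) and Prtn3 (27.6 to 30.01), likewise named afterwards, were near the lowest intensities of the arrays in both genotypes.

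Of 6 genes listed as inhibitors, 4 were above 0, beside 53.2% of all genes, with a median of 0.02. An unadjusted p under 0.05 was found for 2, beside 6.01% of all genes. Spint1, the gene of the membrane-bound inhibitor that holds matriptase in check, had an intensity of 116.0, 114 and 117 in wild type and 120.3, 132 and 131 in Scnn1b-Tg. Its arrays did not overlap, and its log2 fold change was 0.14 ± 0.05 (SE, adjusted p = 0.757 in limma), close to the 0.15 of St14. The secreted elastase inhibitor gene Slpi gave 0.14 ± 0.05. Serpinf1, a serpin gene not shown here to act as an inhibitor, gave 0.02 ± 0.05. Bpifa1, whose airway protein lowers channel number at the surface, was named after its value was seen and gave -0.0060 ± 0.07.

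In the ubiquitin arm, 15 ligases, deubiquitinases and 14-3-3 genes had 7 values above 0, none with an unadjusted p under 0.05, and a median of -0.00041. The list ran from -0.07 to 0.08. Uchl3, a deubiquitinase that recycles the channel, gave 0.07 ± 0.05 (SE), the ligase gene Itch -0.07 ± 0.05 and the 14-3-3 gene Ywhab 0.08 ± 0.07. Of 15 kinases and adaptors of the SGK1 and WNK pathways 9 were above 0, with a median of 0.03. Beside 6.01% of all genes, 1 gene of this list had an unadjusted p under 0.05. That gene was Stk39, the WNK-activated kinase SPAK, at 0.15 ± 0.06. Sgk2, a relative of Sgk1 that was dim here, gave -0.11 ± 0.05 with its transgenic arrays below all of wild type. Akt1 gave 0.22 ± 0.13, and 0.09 without Scnn1b-Tg replicate 3.

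**Figure D4:**
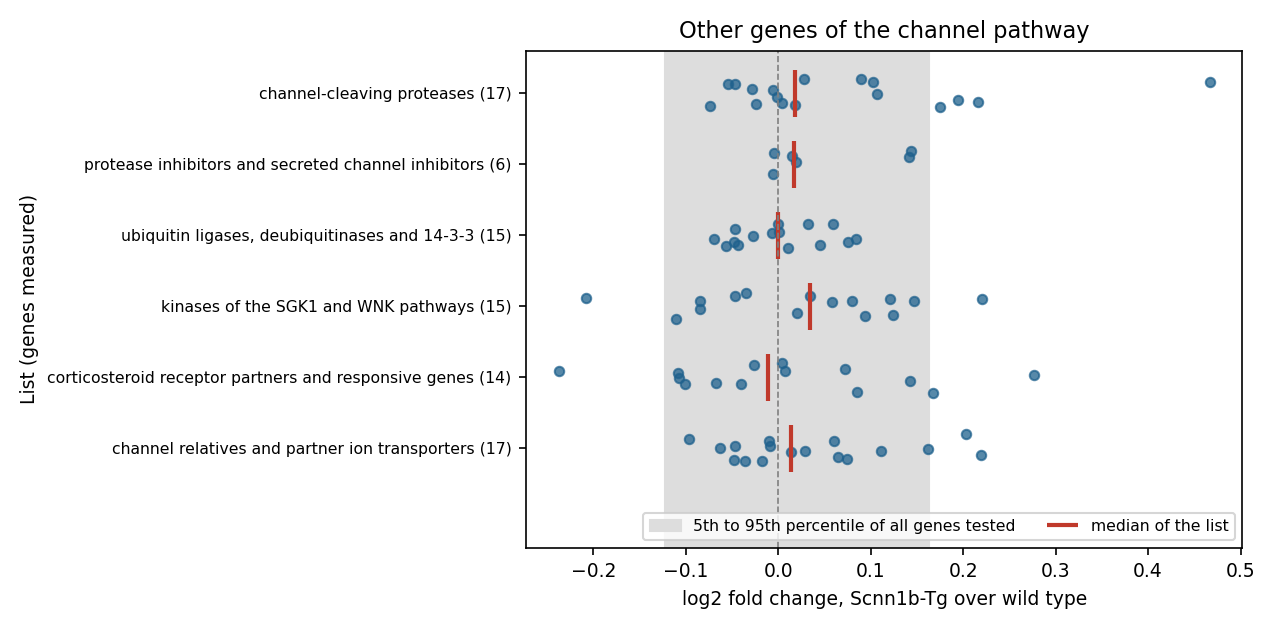
Log2 fold change (Scnn1b-Tg over wild type) of each of the measured genes in 6 lists of the channel's pathway, 1 point a gene, with a red line at the median of each list and grey shading from the 5th (-0.12) to the 95th (0.16) percentile of all genes tested. The medians lie between -0.01 and 0.03, and the farthest point to the right is Ctss at 0.47.

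Among 14 corticosteroid receptor partners and responsive genes 7 were above 0 and none had an unadjusted p under 0.05, with a median of -0.01. Nr3c1, the glucocorticoid receptor gene, gave -0.11 ± 0.06 (SE), the methyltransferase gene Dot1l 0.14 ± 0.10, and Hsd11b1, which regenerates glucocorticoid, -0.24 ± 0.20. Dot1l came to 0.07 when Scnn1b-Tg replicate 3 was left out and to 0.23 when wild type replicate 3 was. Without wild type replicate 2 Hsd11b1 was -0.07, and without wild type replicate 1 it was -0.45. The list differed more within a genotype than between them: its mean deviation was -0.23, 0.22 and 0.01 on the wild-type arrays and -0.15, 0.04 and 0.12 on the transgenic arrays. A member of it named after its values were seen, Tsc22d3, the gene of the glucocorticoid-induced leucine zipper, had an intensity of 176, 322 and 228 in wild type and 199.7, 236 and 252 in Scnn1b-Tg. Sgk1, with the full response element in 1 of its start windows, ranged from 345 to 358 in wild type and from 320.5 to 374 in Scnn1b-Tg.

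Of 17 relatives and partner transporters 9 were above 0, with a median of 0.01. Only 1 had an unadjusted p under 0.05, beside 6.01% of all genes. P2ry2, the nucleotide receptor whose activation lowers sodium uptake in airways, had an intensity of 68.3, 61.5 and 67.2 in wild type and 72.8, 71.1 and 85.9 in Scnn1b-Tg. On the log2 fold scale this was 0.22 ± 0.08 (SE; adjusted p = 0.773, limma), and 0.13 without Scnn1b-Tg replicate 3. The scaffold gene Slc9a3r1 gave 0.20 ± 0.09 and the calcium-activated chloride channel gene Ano1 0.16 ± 0.08. Cftr, the chloride channel gene mutated in cystic fibrosis and named after its value was seen, gave 0.03 ± 0.12, with intensities of 68.7, 81.0 and 71.3 in wild type and 63.8, 87.3 and 75.6 in Scnn1b-Tg.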

How the data were processed

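Lung RNA was extracted with Trizol, biotin-labelled as sense target and read on Affymetrix arrays, per the labels' protocols. The authors deposited linear intensities, 1 per probe set and sample, from RMA per the submitters' processing notes. No version, setting or added constant is named in the sources used here. Of 28815 probe sets, 21780 had exactly 1 symbol in the platform annotation (21689 matched a RefSeq gene by Entrez identifier, with 0 symbols to update), 1605 had several and 5430 none. The brightest probe set of each gene over the 6 arrays was kept (19935 genes), and groups came from the genotype in the titles.

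The model on log2 intensities used limma 3.58.1 under R 4.3.3 (lmFit, eBayes, genotype as the only term, 6.99 degrees of freedom after moderation), with two-sided p-values adjusted over all genes by Benjamini-Hochberg. SE and 95% intervals are from this fit, and its code was tested on simulated data. Named were every member, the 3 genes of each pathway list with the smallest p, the nearest profiles of each subunit, and Scgb1a1, Sftpc and Epcam; others are marked where named. Members, lists and alternatives were chosen with earlier results of these data known. Tried as alternatives were median centring, quantile normalization, a filter that drops the 6645 dimmest genes, averaged or separate probe sets of a gene, array weights, robust variance with an intensity trend, a replicate block, 16 subtracted or 32 added before log2, each array left out in turn, and, added after seeing the data, both arrays that stood apart left out together. Promoter motifs were searched as exact letters on both strands. The number of arrays limits the precision, and no 2 arrays held the same values.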

Additional observations from a re-analysis of the deposited data

How the results depend on the processing

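Scnn1b kept its direction in all 17 alternatives, with log2 fold changes from 3.10 (32 added before log2) to 3.54 (16 subtracted, where it was 11.6-fold), and passed in 16 of them. Over single arrays left out it ran from 3.20 to 3.53, its gain on Scnn1a from 3.34 to 3.74 and its gain on Scnn1g from 3.35 to 3.62. The count of members called was 0 without wild type replicate 3 and 1 in every other alternative. None of the other 9 members passed in any. The count of genes called over all genes was 39 with the 6645 dimmest genes left out, where fewer genes were tested, 36 with an intensity trend and robust variance, 23 with 16 subtracted, 3 with the replicate block, and 6 without both arrays that stood apart (chosen after seeing the data). With single arrays left out it ran from 0 to 5, and the cause of these shifts was not tested. Without wild type replicate 3 the 0 genes called by limma stand beside 1011 at an unadjusted p under 0.05. Of the other 9 members, 2 were under that p there and 2 with the replicate block, 1 each with the dimmest genes left out, with the trend and robust variance, without wild type replicate 1 and without Scnn1b-Tg replicate 1, and 0 in the remaining settings.

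Several values near 0 changed sign. Serpinf1 was -0.0087 with quantile normalization, -0.0025 with median centring and -0.0077 without both arrays that stood apart, and Hsd11b2 was 0.0074 with array weights. Without both of those arrays Prss8 was 0.0192, Hsd11b2 0.0671 and Hsd11b1 0.0528. Over single arrays left out the ranges were -0.16 to 0.0012 for Scnn1g, -0.0658 to 0.0095 for Nedd4l, -0.0863 to 0.0261 for Sgk1, -0.0991 to 0.0921 for Nr3c2, -0.0890 to 0.0623 for Hsd11b2 and -0.0279 to 0.0487 for Serpinf1. Without changing sign, Itch ran from -0.10 to -0.03, Ywhab from 0.04 to 0.15, Ano1 from 0.10 to 0.24 and Akt1 from 0.09 to 0.29. The titles number the replicates 1 to 3 in both genotypes. Deviations of same-numbered arrays correlated at 0.03, 0.03 and 0.04 across genes, and all 6 arrays correlated best with their own number. Whether the numbers mark pairs cannot be told from the labels or from these values, and the main fit does not pair the arrays. With the replicate block Scnn1b stayed called (log2 fold change 3.37, adjusted p = 0.029 in limma).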
